A study of Homo sapiens with 6 samples.

Results

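The genes SNAI1, SNAI2, ZEB1, ZEB2, TWIST1, TWIST2, PRRX1, CDH1, CDH2 and VIM are the core transcription factors and the most used markers of the epithelial-mesenchymal transition (EMT). They were taken by symbol from a table of expected counts of 57736 genes, where all 10 had 1 row each. Of the 10, 9 had counts above 0 in at least 1 library and 8 had enough counts to be tested; PRRX1 was undetected and TWIST2 was detected but not tested. The libraries came from AALE cells, which are airway basal cells of human bronchus made immortal with SV40 and telomerase (hTERT) and grown in a small airway epithelial medium. There were 3 libraries of cells with a lentiviral vector that overexpresses NRG1 (the growth factor neuregulin, a ligand of ERBB receptors) and 3 libraries of cells with a lentiviral control vector. Both groups were stable pools of selected cells, the labels do not name the promoter of the vector, and PolyA RNA was sequenced. Whether libraries of a group came from separate cultures is not stated in the labels, so every p-value reflects library-to-library spread that may be only technical.

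In an EMT, epithelial cells loosen their junctions and take on traits of mesenchymal cells. Zinc-finger factors of the SNAI and ZEB families bind E-box sequences in front of CDH1, the gene of the junction protein E-cadherin, and repress it, while TWIST and PRRX factors act from other DNA-binding families. Cells that go through the change commonly gain N-cadherin (CDH2) and the intermediate filament protein vimentin (VIM). Cultured epithelial cells often express VIM without an EMT, and SNAI2 is also known from the basal layer of normal stratified epithelia.

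Total expected counts per library ran from 8612234 to 10609067 with the NRG1 vector and from 9549284 to 13207620 with the control vector. NRG1 itself was at 6647, 3854 and 3781 CPM (counts scaled to library size with edgeR's TMM factors) in NRG1 libraries 1 to 3, against 11.6, 7.87 and 12.3 CPM in control libraries 1 to 3. The libraries within a group were not alike. The root mean square difference in log2 CPM over all tested genes was 0.361 for NRG1 2 and NRG1 3 and 0.506 for control 1 and control 2, but NRG1 1 lay 0.806 and 0.800 from the other NRG1 libraries, and control 3 lay 0.803 and 0.814 from the other controls. From control 1 and control 2, NRG1 1 lay only 0.680 and 0.727, nearer than from the other NRG1 libraries. NRG1 2 and NRG1 3 also lay nearer to those controls (0.611 to 0.654) than to NRG1 1. By this distance the libraries did not group by vector. NRG1 2 and NRG1 3 differed by more than sampling noise, with a mean chi-square per gene of 2.66 where noise alone gives about 1, but all other pairs within a group had 18.8 to 65.7. Each EMT gene is therefore given with all 6 libraries, and where its call or size differs also without NRG1 1 and control 3 (2 against 2) or without NRG1 1 alone. Libraries were left out there for their distance, and NRG1 2 and NRG1 3 are close to each other, so p-values from 2 against 2 libraries understate the error to an extent that cannot be known. Markers of the labelled cell type were present: the basal keratin KRT5 was at 3880, 3200 and 3140 CPM in NRG1 libraries, against 6950, 4350 and 3300 CPM in controls, and the basal factor TP63 was at 169 to 228 CPM in NRG1 libraries and 158 to 226 CPM in controls. The basal keratin KRT14 was lower, at 348, 87.5 and 93.5 CPM in NRG1 libraries, against 1320, 591 and 965 CPM in controls. Of 10 basal markers, 3 were lower in every NRG1 library than in every control (10.2% of all tested genes). On the higher side there was 1 (9.36%).

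With all 6 libraries, the quasi-likelihood test of edgeR, adjusted by the Benjamini-Hochberg method, called 0 of the 8 tested EMT genes at an adjusted p under 0.05, where it called 0.00648% of all 15421 genes tested, which is NRG1 alone. DESeq2 also called 0 of 8, against 1.36% of all genes. At an unadjusted p under 0.05 in edgeR there were 4 of 8, against 11.8% of all genes: CDH1 was on the higher side (background 5.07%), and ZEB1, ZEB2 and CDH2 were on the lower side (background 6.72%). The fitted log2 fold changes of 6 of the 8 were below 0, with a median of -1.08 for the 8, while 50% of all genes were below 0 and their median was 0.00. In bulk RNA, fewer cells that express a gene and less of its RNA per cell cannot be told apart.

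**Figure D1:**
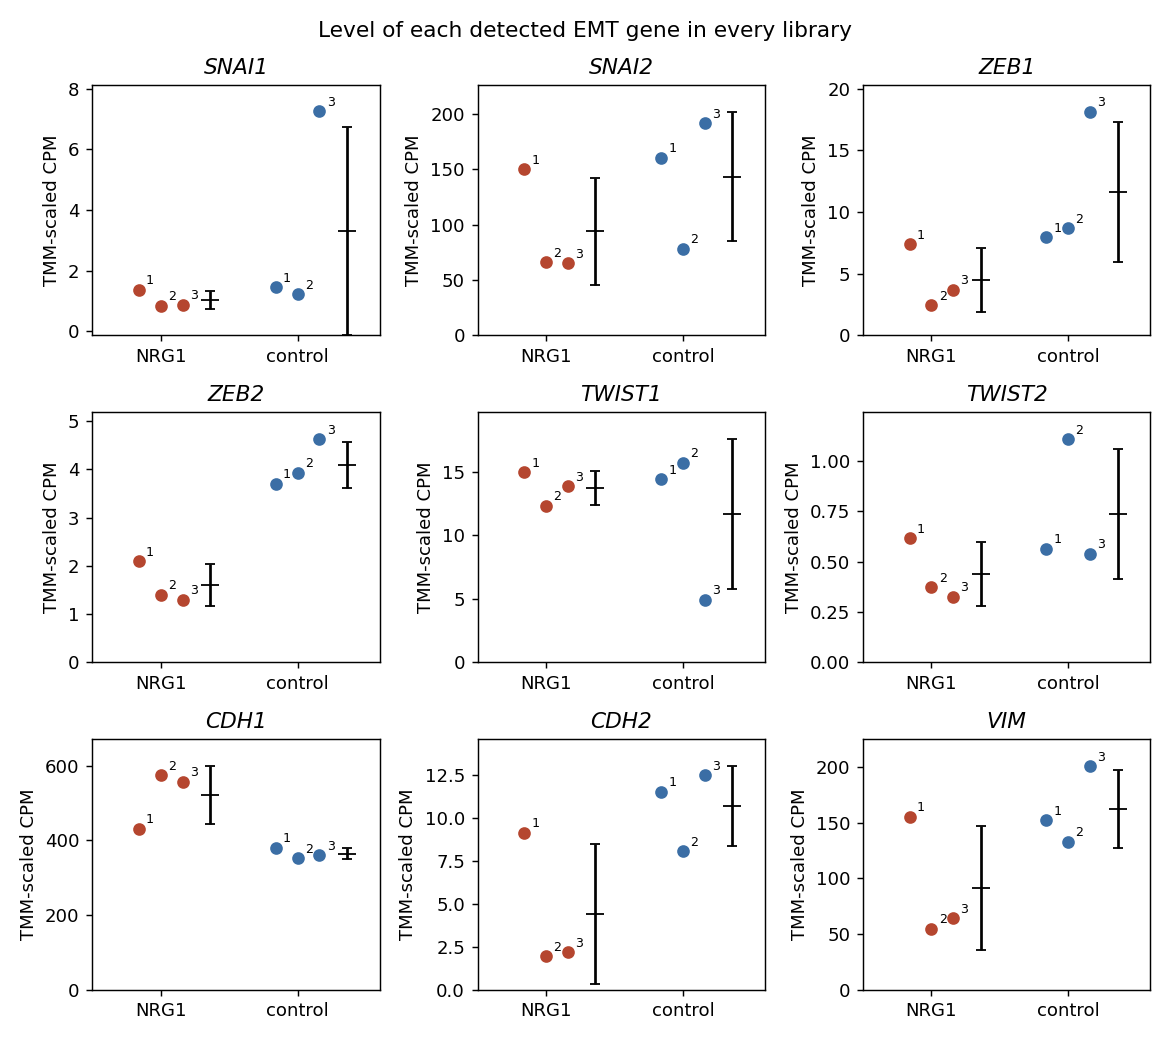
TMM-scaled CPM of the 9 detected EMT genes, 1 panel each with its own linear axis; points are libraries numbered by replicate, NRG1 left and control right, and the bar beside them is the group mean with its SD (n = 3 each). ZEB1 and ZEB2 lay lower in all 3 NRG1 libraries than in every control and CDH1 higher, while NRG1 1 sat at control levels for VIM, CDH2 and SNAI2.

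ZEB2 (ENSG00000169554, chromosome 2 in GENCODE 29, as for the chromosomes that follow), a zinc-finger homeobox repressor, was at 2.10, 1.40 and 1.30 CPM in NRG1 libraries 1 to 3, against 3.71, 3.94 and 4.63 CPM in control libraries 1 to 3. The groups did not overlap, and NRG1 1 lay with the other NRG1 libraries. Its log2 fold change was -1.37 (SE 0.35), with an edgeR p of 0.00453 and an adjusted p of 0.318. In the 2 against 2 comparison it fell by 1.48 on the log2 scale (adjusted p = 0.0342 in edgeR), and over the other 17 alternatives the adjusted p ran from 0.117 to 0.854. A two-sided exact permutation test over the 6 libraries gave p = 0.1, the smallest that 3 against 3 allows.

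ZEB1 (ENSG00000148516, chromosome 10), the paralog of ZEB2, was at 7.42, 2.43 and 3.69 CPM in NRG1 libraries, against 7.98, 8.68 and 18.1 CPM in controls. The groups did not overlap, but NRG1 1 lay close under control 1. The log2 fold change was -1.40 (SE 0.49; edgeR adjusted p = 0.368). In the 2 against 2 comparison ZEB1 fell by 1.45 on the log2 scale (edgeR adjusted p = 0.0213; over the other 17 alternatives 0.152 to 0.854). Control 3 was far above the other controls, and without it the log2 fold change was -0.92 (edgeR adjusted p = 0.582). Per count of ZEB2 there were 3.53, 1.73 and 2.83 counts of ZEB1 in NRG1 libraries, against 2.15, 2.21 and 3.92 in controls, so the ratio of the paralogs overlapped between the groups.

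SNAI1 (ENSG00000124216, chromosome 20), the Snail repressor of CDH1, was low, at 11, 9 and 8 expected counts in NRG1 libraries, against 18, 12 and 94 in controls. In TMM-scaled CPM this was 1.36, 0.841 and 0.869 in NRG1 libraries, against 1.45, 1.21 and 7.26 in controls. The higher control mean rests on control 3. The log2 fold change of -1.75 (SE 0.81; edgeR adjusted p = 0.439) came to -0.42 without control 3.

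SNAI2 (ENSG00000019549, chromosome 8), also called Slug, was the most abundant of these transcription factors, per length as well, at 149.9, 66.2 and 65.2 CPM in NRG1 libraries, against 160.2, 78.2 and 191.5 CPM in controls. NRG1 2 and NRG1 3 were below every control, but NRG1 1 was inside the control range, and control 2 was close above the lower pair. It averaged 93.8 ± 48.6 CPM with NRG1 and 143 ± 58.5 CPM in controls (SD, n = 3 each), and the log2 fold change of -0.62 (SE 0.41) did not pass (edgeR adjusted p = 0.559). It was -1.13 without NRG1 1 and -0.36 without control 3, and also did not pass in the 2 against 2 comparison (-0.86 on the log2 scale, edgeR adjusted p = 0.102; over the other 17 alternatives 0.202 to 0.877).

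TWIST1 (ENSG00000122691, chromosome 7), a basic helix-loop-helix factor, was at 15.0, 12.3 and 13.9 CPM in NRG1 libraries, against 14.4, 15.7 and 4.94 CPM in controls. It alone among the tested factors had no NRG1 library outside the control range. The log2 fold change was 0.24 (SE 0.41; edgeR adjusted p = 0.828), and it turned to -0.14 without control 3, the library where TWIST1 was low. The related TWIST2 (ENSG00000233608, chromosome 2) had 5, 4 and 3 counts in NRG1 libraries, against 7, 11 and 7 in controls, which is too few to test. PRRX1 (ENSG00000116132, chromosome 1), a homeobox factor of mesenchymal cells, had 0 counts in all 6 libraries; a count of 0 allows up to 3 counts, or 0.227 to 0.348 CPM depending on the library, counting error only.

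CDH1 (ENSG00000039068, chromosome 16), which joins epithelial cells to each other, was at 431.7, 574.7 and 557.4 CPM in NRG1 libraries, against 381.0, 352.6 and 361.2 CPM in controls. All 3 NRG1 libraries were above all 3 controls, and NRG1 1 lay between the controls and the other NRG1 libraries. It averaged 521 ± 78.1 CPM with NRG1 and 365 ± 14.6 CPM in controls (SD, n = 3 each). The log2 fold change was 0.51 (SE 0.16), a fold of 1.43, with an edgeR p of 0.0105 and an adjusted p of 0.343. CDH1 rose in the 2 against 2 comparison, by 0.63 on the log2 scale (edgeR adjusted p = 0.0159; over the other 17 alternatives 0.0758 to 0.854). Leaving out any 1 library kept the log2 fold change between 0.44 and 0.63.

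CDH2 (ENSG00000170558, chromosome 18), the neural and mesenchymal cadherin, was at 9.15, 1.96 and 2.17 CPM in NRG1 libraries, against 11.5, 8.07 and 12.5 CPM in controls. NRG1 2 and NRG1 3 had less than any control, but NRG1 1 was inside the control range. The log2 fold change with all 6 libraries was -1.33 (SE 0.55; edgeR adjusted p = 0.412). Without NRG1 1 it was -2.38 (edgeR adjusted p = 0.0541), and in the 2 against 2 comparison CDH2 fell by 2.25 on the log2 scale (edgeR adjusted p = 0.00714; over the other 17 alternatives 0.0541 to 0.854). There were 47.2, 293 and 257 counts of CDH1 per count of CDH2 in NRG1 libraries, against 33.1, 43.7 and 28.9 in controls. These ratios compare libraries only, since the genes differ in length.

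VIM (ENSG00000026025, chromosome 10) was at 155.6, 54.7 and 64.0 CPM in NRG1 libraries, against 152.4, 133.0 and 201.1 CPM in controls. As with CDH2, NRG1 2 and NRG1 3 were below every control and NRG1 1 was among the controls. The log2 fold change was -0.83 (SE 0.38; edgeR adjusted p = 0.438), and -1.45 without NRG1 1 (edgeR adjusted p = 0.0524). In the 2 against 2 comparison VIM fell by 1.27 on the log2 scale (edgeR adjusted p = 0.00373; over the other 17 alternatives 0.0524 to 0.854). Counts of CDH1 per count of VIM were 2.77, 10.5 and 8.70 in NRG1 libraries, against 2.50, 2.65 and 1.80 in controls. NRG1 1, in which VIM, CDH2 and SNAI2 were at control levels, also had the highest NRG1 level. ZEB1, ZEB2 and CDH1 lay outside the control range in that same library. It is a single library that stands apart, and a relation between the NRG1 level and these genes was not tested.

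**Figure D2:**
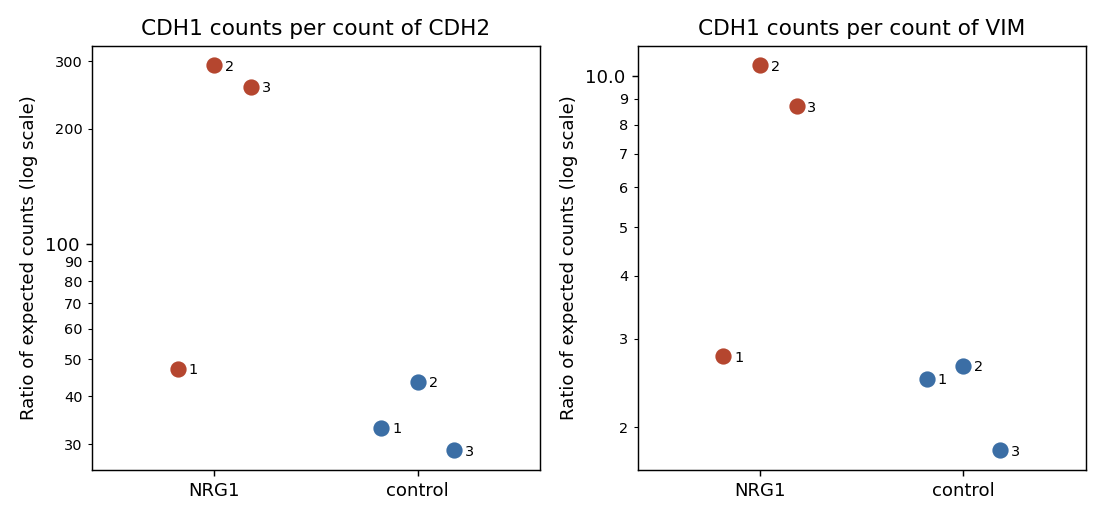
Expected counts of CDH1 per count of CDH2 (left) and of VIM (right), in each library on a logarithmic axis, NRG1 left and control right. NRG1 2 and NRG1 3 had 293 and 257 counts of CDH1 per count of CDH2, against 28.9 to 43.7 in controls, and NRG1 1 had 47.2.

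Seen by library, NRG1 2 and NRG1 3 both lay below every control for 6 of the 8 tested genes (SNAI1, SNAI2, ZEB1, ZEB2, CDH2 and VIM), against 22.2% of all genes tested, and both lay above every control for CDH1 alone, against 22.5%. For SNAI1 this rests on 9 and 8 counts against 12 in control 2, and for SNAI2 on 66.2 and 65.2 CPM against 78.2 CPM there. NRG1 2 and NRG1 3 are close to each other, so their shared position may not be 2 independent observations. NRG1 1 was below the controls for 2 of the 8, above for 1 and inside their range for 5; over all genes tested it was inside for 41.7%. All 3 NRG1 libraries were below all controls for 2 of the 8 (ZEB1 and ZEB2; 10.2% of all genes) and above for 1 (CDH1; 9.36%). In the 2 against 2 comparison, edgeR called 5 of the 8, against 9.8% of all genes, of which CDH1 rose (5.04% of all genes) and ZEB1, ZEB2, CDH2 and VIM fell (4.77%). Without NRG1 1 alone it called 0 of the 8, against 0.24% of all genes. The two-sided exact permutation test over all 6 libraries, which cannot go below 0.1, gave p = 0.1 for ZEB1, ZEB2 and CDH1, 0.2 for SNAI1, SNAI2 and CDH2, 0.3 for VIM and 0.9 for TWIST1.

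**Figure D3:**
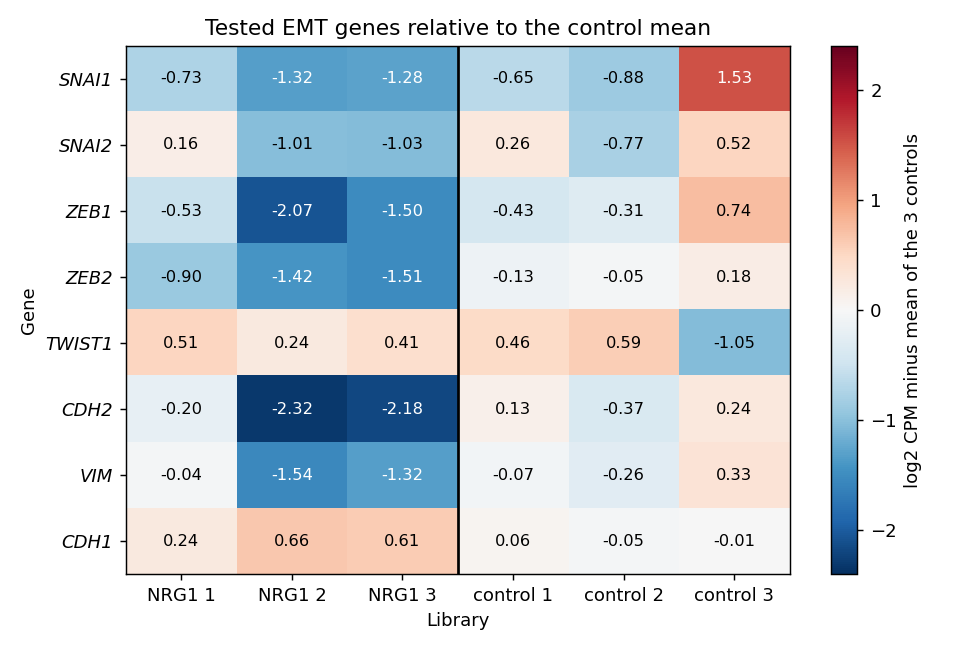
Log2 level of each tested EMT gene in every library relative to the mean of the controls, as colours, with NRG1 libraries left of the controls. NRG1 2 and NRG1 3 were at -2.32 and -2.18 for CDH2 and at -1.54 and -1.32 for VIM, where NRG1 1 was at -0.20 and -0.04, and SNAI1 was at 1.53 in control 3.

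**Figure D4:**
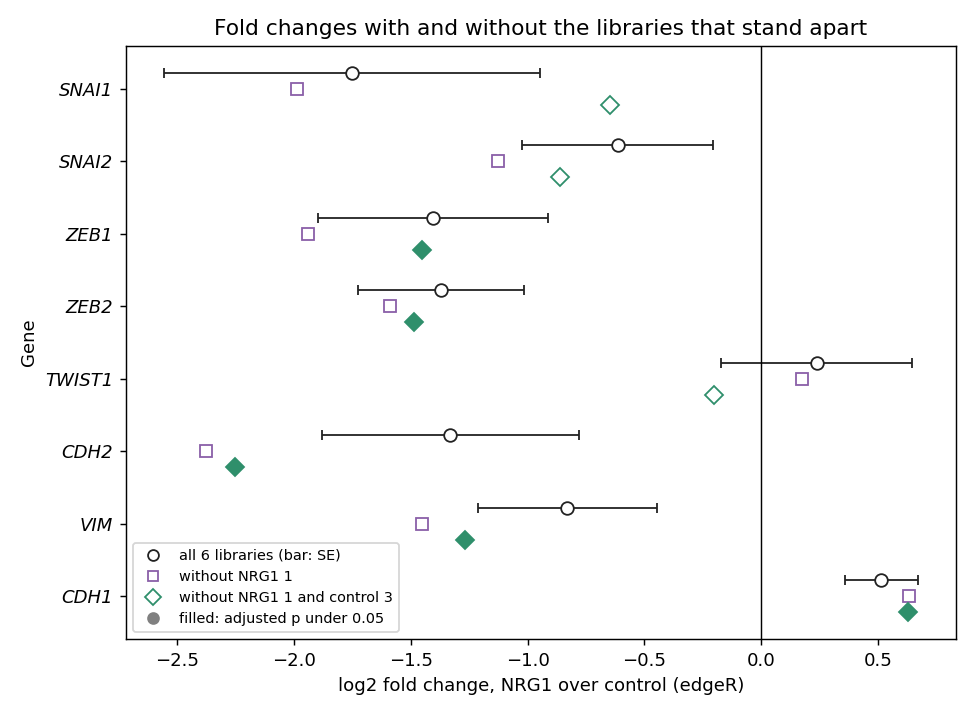
Fitted log2 fold changes of NRG1 over control with all 6 libraries (circles, bar is the SE), without NRG1 1 (squares) and without NRG1 1 and control 3 (diamonds), 1 row per gene. Filled symbols passed an adjusted p of 0.05 in edgeR, which were the 2 against 2 values of ZEB1, ZEB2, CDH1, CDH2 and VIM.

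Levels between genes were compared per kilobase of merged exons in the GENCODE 29 annotation. The order by the group mean was the same in both groups. CDH1 came first, at 84.4 ± 12.6 CPM per kb with the NRG1 vector and 59.1 ± 2.36 with the control vector (SD, n = 3 each). SNAI2 followed (27.6 ± 14.3 with NRG1, 42.2 ± 17.2 in controls) and then VIM (17.7 ± 10.8 with NRG1, 31.4 ± 6.80 in controls); SNAI2 and VIM overlapped within both groups, while every library had more CDH1 per kb than any library of its group had SNAI2. The remaining genes were far lower, from TWIST1 at 6.75 ± 0.649 CPM per kb with NRG1 and 5.76 ± 2.90 in controls, through CDH2, SNAI1 and ZEB1, at 0.522 to 0.894 with NRG1 and 1.34 to 2.16 in controls, to TWIST2, at 0.234 with NRG1 and 0.393 in controls, and ZEB2, at 0.0639 with NRG1 and 0.163 in controls. CDH2, SNAI1 and ZEB1 overlapped with each other in both groups, and ZEB2 was below TWIST2 per kb in every library. That order rests on merged exons of 25.1 kb for ZEB2 and 1.88 kb for TWIST2. Such lengths join the exons of all annotated transcripts, and which transcripts the cells made was not measured. In CPM not divided by length, ZEB2 was above TWIST2 in every library.

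Promoter sequence, from 250 bases before to 50 after a start, was taken from RefSeq (GRCh38.p14). It was found for 6 of the 10 genes (ZEB1, ZEB2, TWIST2, PRRX1, CDH2 and VIM), in 13 windows. The motif searched was CAGGTG, the E-box bound by SNAI and ZEB zinc fingers, on either strand (CACCTG on the other), which is in 20.6% of all 35116 windows, and TGANTCA, the site of the AP-1 factors FOS and JUN, which is in 7.71%. The E-box was in 2 of the 13 windows, both of ZEB1, and AP-1 in 1, of CDH2. The 2 ZEB1 windows with the E-box and the windows of CDH2 and VIM, which lack it, are printed with matches of either motif in capitals, because these 3 genes had lower levels in NRG1 2 and NRG1 3; the window of ZEB2 holds neither motif. No match of one motif overlapped a match of the other.
ZEB1 window 3, chr10:31318966-31319265, plus strand: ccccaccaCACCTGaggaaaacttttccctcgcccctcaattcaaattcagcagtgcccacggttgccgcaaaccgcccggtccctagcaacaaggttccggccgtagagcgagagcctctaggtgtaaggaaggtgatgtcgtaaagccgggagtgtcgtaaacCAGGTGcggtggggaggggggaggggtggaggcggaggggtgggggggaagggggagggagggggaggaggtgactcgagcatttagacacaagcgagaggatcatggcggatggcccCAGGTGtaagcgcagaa
ZEB1 window 1, chr10:31318167-31318466, plus strand: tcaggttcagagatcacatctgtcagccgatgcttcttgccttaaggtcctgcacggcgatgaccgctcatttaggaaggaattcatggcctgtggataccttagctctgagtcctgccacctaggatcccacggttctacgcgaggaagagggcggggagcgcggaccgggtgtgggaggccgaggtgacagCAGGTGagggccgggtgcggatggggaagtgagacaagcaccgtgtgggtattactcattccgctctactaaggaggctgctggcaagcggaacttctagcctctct
CDH2 window 1, chr18:28177081-28177380, minus strand: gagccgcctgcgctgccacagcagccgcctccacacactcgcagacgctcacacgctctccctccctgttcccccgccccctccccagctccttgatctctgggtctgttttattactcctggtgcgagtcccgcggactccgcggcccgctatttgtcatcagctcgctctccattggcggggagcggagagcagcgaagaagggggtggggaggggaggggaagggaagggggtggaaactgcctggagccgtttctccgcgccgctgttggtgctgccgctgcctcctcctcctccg
CDH2 window 2, chr18:28036592-28036891, minus strand: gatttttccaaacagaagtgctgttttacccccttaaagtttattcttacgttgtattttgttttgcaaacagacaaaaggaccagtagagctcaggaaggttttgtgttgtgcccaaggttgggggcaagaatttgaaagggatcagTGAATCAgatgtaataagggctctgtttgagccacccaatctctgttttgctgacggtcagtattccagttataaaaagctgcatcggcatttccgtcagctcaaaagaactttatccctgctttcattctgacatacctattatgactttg
VIM, chr10:17227991-17228290, plus strand: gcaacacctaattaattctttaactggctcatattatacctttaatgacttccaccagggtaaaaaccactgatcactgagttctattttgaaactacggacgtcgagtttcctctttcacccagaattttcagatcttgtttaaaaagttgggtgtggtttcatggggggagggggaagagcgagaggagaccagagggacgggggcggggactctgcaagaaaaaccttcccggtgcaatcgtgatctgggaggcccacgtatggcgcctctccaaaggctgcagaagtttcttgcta
ZEB1 window 3 holds 3 matches, a number of matches (3 or more) found in 0.635% of all windows, and window 1 holds 1. Window 3 had the most E-box matches of the 13 windows. The share of all windows is for any single window, so it does not show how unusual the top window of a set is. CDH2 window 2 holds the AP-1 match. A match describes the sequence only, and whether any factor binds there was not measured.

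Genes around the tested ones were taken from lists, and are given by their counts and medians beside all genes (for an unadjusted p under 0.05, 5.07% on the higher and 6.72% on the lower side; median 0.00). In the other EMT transcription factors, edgeR called 0 of 11, and 2 had an unadjusted p under 0.05 and lay lower, with a median log2 fold change of 0.02. These were FOXC2, at 2.97, 0.280 and 0.434 CPM in NRG1 libraries, against 4.19, 4.84 and 3.47 CPM in controls (edgeR adjusted p = 0.368, and 0.00575 in the 2 against 2 comparison), and SOX9, at 9.39, 11.7 and 12.9 CPM in NRG1 libraries, against 23.6, 9.69 and 68.6 CPM in controls. Corepressors that SNAI and ZEB factors recruit had 0 of 12 called and 2 with an unadjusted p under 0.05, both lower, the Polycomb methyltransferase EZH2 and the DNA methyltransferase DNMT1 (median 0.02). Genes that set SNAI protein stability (kinases and proteins that add or remove ubiquitin) had 0 of 10 under that p in either direction (median -0.09). Factors of the epithelial state had 2 of 13 higher (EHF and ELF3) and 1 lower (KLF4) at an unadjusted p under 0.05, with a median of 0.24. EHF was at 14.8, 34.5 and 38.3 CPM in NRG1 libraries, against 14.2, 9.79 and 10.9 CPM in controls. ELF3 was at 9.02, 59.4 and 52.8 CPM, against 6.29, 8.17 and 12.5 CPM, so NRG1 1 was inside the control range. Of the 13, edgeR called 0, and DESeq2 called 2 as higher (0.597% of all genes), EHF and ELF3, and 0 as lower (0.759%).

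Among 9 tested catenins and cadherin partners edgeR called 0, and 2 had an unadjusted p under 0.05, 1 in each direction, with a median log2 fold change of 0.09 over the list. The higher one, CTNND1, the p120 catenin that holds cadherins at the membrane, was at 388, 435 and 445 CPM in NRG1 libraries, against 276, 278 and 253 CPM in controls. The groups did not overlap, and the log2 fold change was 0.65 (SE 0.14; edgeR adjusted p = 0.24); DESeq2 called it (adjusted p = 0.00628). The lower one, VCL, the actin linker vinculin, was at 181, 165 and 162 CPM in NRG1 libraries, against 228, 184 and 466 CPM in controls (log2 fold change -0.79, SE 0.32, edgeR adjusted p = 0.405). NECTIN2, a junction adhesion protein, was at 35.8 to 43.1 CPM in NRG1 libraries and 43.8 to 66.2 CPM in controls. Of the other 4 tested cadherins, the membrane-anchored CDH13 was at 39.1, 12.1 and 12.2 CPM in NRG1 libraries, against 59.8, 53.8 and 46.6 CPM in controls, with a log2 fold change of -1.35 (SE 0.44; edgeR adjusted p = 0.358) and, in the 2 against 2 comparison, of -2.23 (edgeR adjusted p = 0.000932). NRG1 1 lay between the other NRG1 libraries and the controls. CDH3, the P-cadherin of basal epithelia, was at 299 to 309 CPM in NRG1 libraries and 332 to 362 CPM in controls, with a log2 fold change of -0.21 (SE 0.13; edgeR adjusted p = 0.531). Of the 5 tested intermediate filament partners of VIM, none was called by edgeR or was under an unadjusted p of 0.05.

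Of 21 tested epithelial targets that EMT factors repress, with CDH1 left out, 18 had a fitted log2 fold change above 0 (about 50% of all genes), with a median of 0.18; 0 were called by edgeR, 2 were higher by DESeq2 (MUC1 and KRT19; 0.597% of all genes), and 3 were higher in every NRG1 library than in every control (9.36% of all genes). In the 2 against 2 comparison edgeR called 8 of the 21 as higher (5.04% of all genes) and 0 as lower. Of 24 tested mesenchymal genes, 19 were below 0 (50% of all genes), with a median of -0.64; 0 were called by edgeR, 6 were lower by DESeq2 (0.759% of all genes), and for 10 the 3 NRG1 values were all below the 3 control values (10.2% of all genes). In the 2 against 2 comparison edgeR called 10 of the 24 as lower (4.77% of all genes) and 1 as higher. Several of these lists share genes with lists on which results of these libraries were already known, so they are no independent evidence of a direction. Among the genes with the smallest p in them, COL5A1, a fibrillar collagen chain, was at 3.71 to 4.67 CPM in NRG1 libraries, against 21.0 to 36.5 CPM in controls, and TAGLN, an actin-binding protein, at 3.09 to 5.10 CPM against 15.3 to 20.4 CPM in controls. For both, NRG1 1 was as low as the other NRG1 libraries, whereas fibronectin (FN1) was at 1080, 413 and 419 CPM in NRG1 libraries, against 4290, 2780 and 3180 CPM in controls, with NRG1 1 the highest of the NRG1 libraries.

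**Figure D5:**
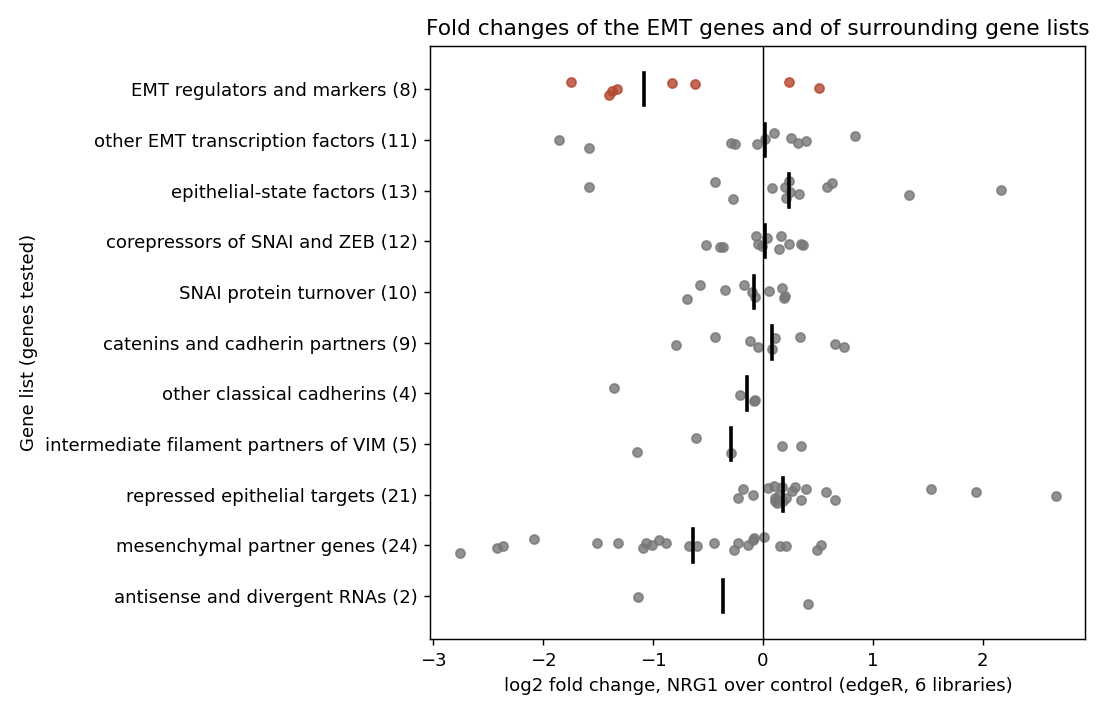
Fitted log2 fold changes (NRG1 over control) of the tested genes of each list, 1 point per gene, with the median as a line. The mesenchymal partner genes lay mostly below 0 (median -0.64) and the repressed epithelial targets mostly above (median 0.18).

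The summed level of 12 fibroblast and stromal markers was 30.5 to 33.9 CPM in NRG1 libraries and 84.2 to 124 CPM in controls, with 5 of 12 lower in every NRG1 library than in every control (10.2% of all tested genes) and 0 higher. Of the 12, 4 were tested and 0 called by edgeR, and COL1A1 and THY1 are also among the mesenchymal genes above. Not all of the 5 were therefore tested, so 5 of 12 and the 10.2% are not over like sets of genes. TCF21 was at 0 in all libraries, and COL1A2, LUM and COL3A1 were at most 0.374 CPM in NRG1 libraries and 0.706 CPM in controls. Among the NRG1 libraries COL1A1, which made up 40.1% of the sum, was lowest in NRG1 1 (11.1, 23.5 and 21.1 CPM in NRG1 1 to 3), while COL6A3 (8.16, 2.52 and 4.34 CPM), DCN (7.29, 2.80 and 4.67 CPM) and THY1 (1.98, 0.654 and 0.760 CPM) were highest there. The part of these markers in the results on VIM, CDH2 and ZEB genes was not tested. The 10 basal epithelial markers summed to 5780 to 7120 CPM in NRG1 libraries and 8750 to 12700 CPM in controls, and the 11 markers of simple and secretory epithelium, which also include 2 of the genes named above (KRT19 and MUC1), to 1460 to 1610 CPM in NRG1 libraries and 617 to 920 CPM in controls. KRT5 made up 50.5% of the basal sum and KRT19 45.7% of the simple and secretory sum. Endothelial markers summed to 2.24 to 4.08 CPM in NRG1 libraries and 1.16 to 2.10 CPM in controls, with CDH5 at 0. Leukocyte markers summed to 9.99 to 28.2 CPM in NRG1 libraries and 22.2 to 34.3 CPM in controls, with CD3E at 0. CD68 alone made up 80.2% of the leukocyte sum, and PTPRC was at 0 in NRG1 libraries and at most 0.154 CPM in controls.

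Among the 5 genes whose log2 CPM went most like that of CDH1 over the 6 libraries (Pearson r, as a description, of 10517 tested genes with a mean of at least 10 CPM) were UGT1A6 at r = 0.985, NENF, MVP and ABCF3. MVP, the major vault protein, was at 62.7, 117 and 102 CPM in NRG1 libraries, against 55.1, 47.4 and 41.2 CPM in controls. For VIM the 5 were INTS13 at r = 0.996, AASS, SLC39A14, ETV5 and ELP4. ETV5, a factor of the ETS family, was at 62.2, 10.6 and 12.1 CPM in NRG1 libraries, against 56.1, 57.8 and 91.3 CPM in controls. Its control level in NRG1 1 follows from its choice by likeness to VIM and is no separate observation. Over these 6 libraries r was above 0.9 for 461 genes with VIM and 201 with CDH1.

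Expected counts of CDH1 and VIM were fractional in all 6 libraries, those of SNAI2 in 2 and those of ZEB1 in 1, so some reads were shared with other genes. The TruSeq kit used does not mark strand, and exons of ZEB1-AS1 overlap 4.23% of those of ZEB1. ZEB1-AS1 had 73.0 to 82.0 expected counts in NRG1 libraries and 46.0 to 90.9 in controls, so part of the ZEB1 counts cannot be told apart from it; its level was 6.82 to 10.1 CPM in NRG1 libraries and 3.55 to 8.17 CPM in controls. VIM-AS1 overlaps 12.4% of the VIM exons and had 0 to 25.3 counts in NRG1 libraries and 1 to 9.56 in controls.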

How the data were processed

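The deposited expected counts were not normalized. The submitters' processing notes list RSEM 1.3.0, STAR 2.5.3a, MultiQC 0.9 and FastQC 0.11.3, with hg19 as the build and no roles or annotation. RSEM shares reads that fit several genes. A further deposited table held log2 CPM values of 14759 genes, which equalled TMM-scaled log2 CPM with a prior count of 0.25 to within 4.97e-14. Libraries held 8612234 to 13207620 expected counts. PolyA RNA was prepared with RNeasy and TruSeq, per the labels.

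Rounded counts went into edgeR 4.0.16 (R 4.3.3; TMM, filterByExpr with a minimum count of 10, quasi-likelihood test, Benjamini-Hochberg over 15421 genes, threshold 0.05). Alternatives were DESeq2 1.42.0, limma 3.58.1 (voom, and trend on log2 CPM), other scalings and filters, a replicate block, each library left out, and 2 against 2. An edgeR run with earlier dispersion estimates and NRG1 2 and NRG1 3 summed into 1 library were chosen after seeing the data. Which libraries the 2 against 2 comparison left out was also chosen from these data, by their distance. The SE of a log2 fold change was its absolute value divided by the square root of the F statistic of the quasi-likelihood test. Symbols came from a name table (51959 of 57736 genes), and lengths from GENCODE 29. The named genes were NRG1, the 10 EMT genes, up to 4 genes of each list with the smallest p, and the 5 most like CDH1 and VIM. A gene that met this rule is not reported here. The EMT genes and lists were chosen with earlier results of these data known.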

Additional observations from a re-analysis of the deposited data

How the results depend on the processing

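Over 18 alternative settings of the 8 tested EMT genes, 137 of 144 log2 fold changes kept their direction and side of the threshold, 5 passed it (ZEB1, ZEB2, CDH1, CDH2 and VIM, in the 2 against 2 comparison) and 2 turned: TWIST1, which ran from -0.14 to 0.50 when 1 library was left out, was at -0.14 without control 3 and at -0.20 in the 2 against 2 comparison. The 0 EMT genes called stayed 0 in 17 of 18 settings and became 5 in the 2 against 2 comparison. The count of all genes called, 1 with edgeR, was 209 with DESeq2, 21 without a low-count filter, 2 by limma-voom, 2 by limma-trend on log2(CPM + 1), 1 to 37 when 1 library was left out (37 without NRG1 1) and 1512 in the 2 against 2 comparison (777 higher and 735 lower). The replicate number as a block gave 2 genes and no EMT gene. With NRG1 2 and NRG1 3 summed into 1 library, 1 gene and 0 EMT genes were called. Same-numbered libraries correlated at 0.0198, 0.125 and -0.0801 in their deviations from the group means, and not every library correlated best with its own number, so the numbers were not taken as a pairing. Counts under about 10, as of TWIST2 and the NRG1 libraries of SNAI1, limit what the depth can show. The cause of the differences between settings was not tested.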
